A study of Mus musculus with 6 samples.

Results

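The genes described here are the 54 protein-coding mouse genes that detoxify with glutathione or remove peroxide and superoxide. They were chosen by name, with earlier results of these data known. The names are the glutathione transferase families Gsta, Gstm, Gstp, Gstt, Gstk, Gsto and Mgst, the glutathione peroxidases (Gpx) and the peroxiredoxins (Prdx). To these come 15 single genes of glutathione synthesis, superoxide dismutation, the thioredoxin system and their regulator NRF2. All 54 were found among the 50686 genes of the table, and 38 of them were among the 13178 genes with enough reads to be tested. The counts came from lacrimal glands, the exocrine glands that make the watery part of tears, of mice 13 weeks old. The 3 control glands were wild-type and the 3 others were Eda-/-, titled Tabby in the labels, and all 6 carried the strain label C57BL/6. Eda encodes ectodysplasin A, a TNF family ligand of skin appendage and gland development. The series' design text calls the glands biological replicates. No agent is named in the labels for either group, and the sources used here give neither the sex of the mice nor whether mutants and controls were littermates.

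Glutathione is a small thiol made from glutamate, cysteine and glycine by Gclc with its modifier Gclm and then by Gss, and its oxidised form is returned to the thiol by Gsr. Glutathione peroxidases use it to reduce hydrogen peroxide and lipid peroxides, and most peroxiredoxins do the same with electrons from thioredoxin. Glutathione transferases couple glutathione to reactive compounds so that these can be exported. NRF2, encoded by Nfe2l2 and held down by Keap1, turns on many of these genes through antioxidant response elements. In a gland with heavy protein export, peroxide is also made in the endoplasmic reticulum when disulfide bonds are formed.

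Changes among these genes in the Eda-/- glands were few and modest. The alpha class transferases Gsta3 and Gsta4, the omega class transferase Gsto1 and the lipid peroxide reductase Gpx4 fell, and glutathione reductase (Gsr) and thioredoxin (Txn1) rose. The falls ran from 1.27-fold in Gsta3 and Gpx4 to 1.99-fold in Gsta4, and the rises were 1.21-fold in Txn1 and 1.27-fold in Gsr. So 6 of 38 tested genes passed the threshold of 0.05 in the quasi-likelihood test of edgeR, with p adjusted after Benjamini-Hochberg over all tested genes, a share of 15.8% beside 13.1% of all tested genes. The 2 that rose made 5.26% beside 6.21%, and the 4 that fell 10.5% beside 6.9%, shares near those of all tested genes. DESeq2 called 1 of the 38 higher and 4 lower (4.16% higher, 5.27% lower and 9.43% in all among all tested genes). With limma-voom 2 were higher and 4 lower beside 5.99% and 6.15% of all tested genes (12.1% in all), and after removal of a GC and length trend 2 and 4 beside 7.32% and 7% (14.3% in all). Scaled by library totals in place of TMM, 0 were higher beside 1.87% of all tested genes and 13 lower, 34.2% beside 33.1% (35% of all genes passed in all), so that the split moved for genes in general. The median log2 fold change of the 38 was 0.01, and that of all tested genes was 0.00. Summed over all 54 genes, the level was 934 ± 12.05 CPM (counts relative to the library total, scaled by TMM) in wild-type and 933 ± 25.2 in Eda-/- glands (SD, n = 3 each).

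**Figure D1:**
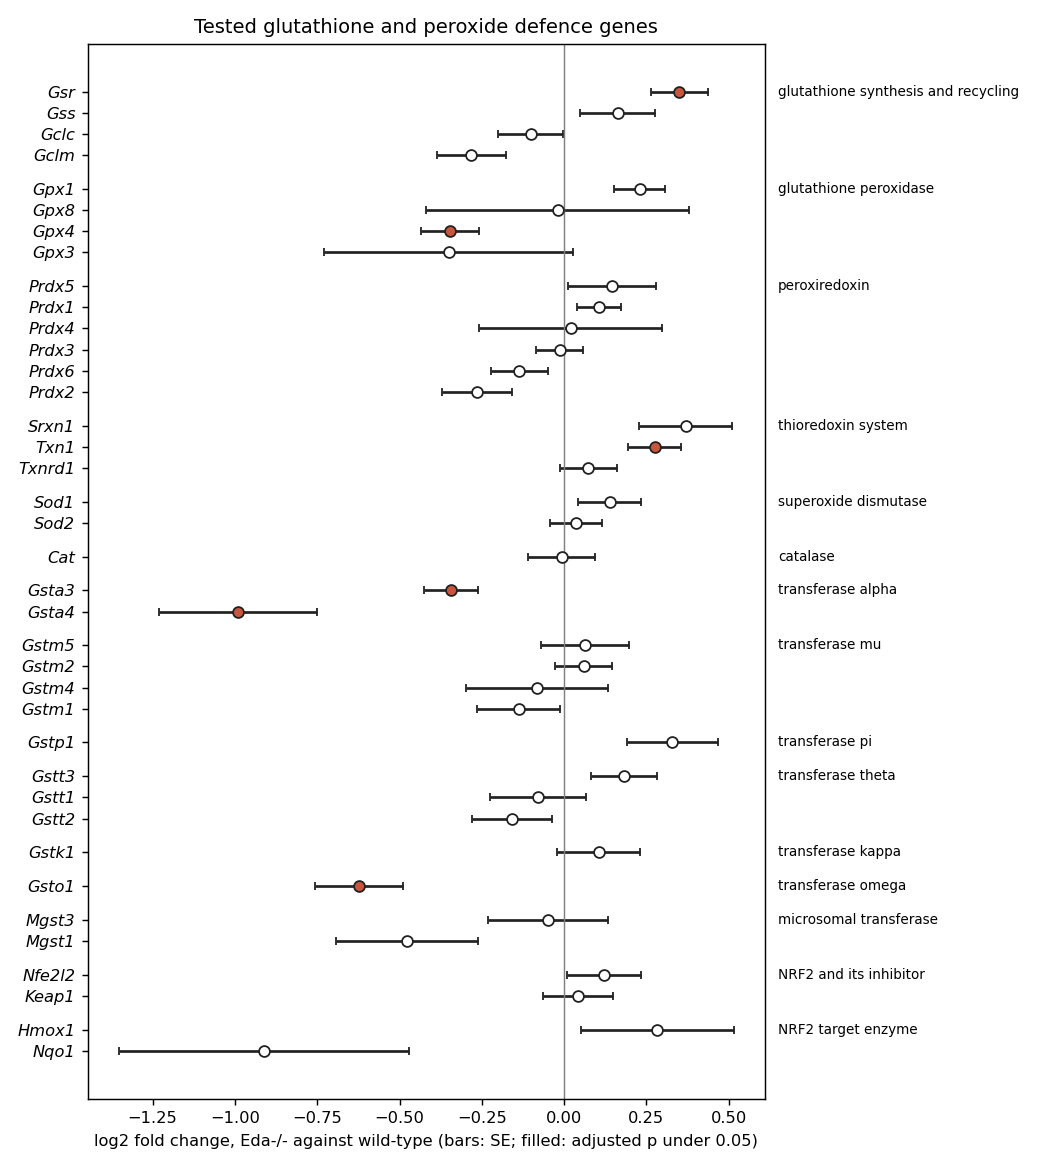
The log2 fold change of Eda-/- against wild-type glands is plotted for each of the 38 tested genes, grouped by role, with bars for the standard error and filled points for the 6 genes past the threshold. The points range from -0.99 for Gsta4 to 0.37 for Srxn1, with Gsta4, Nqo1, Gsto1 and Mgst1 farthest to the left.

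Library totals ran from 11894395 to 15700899 counts. Counts of Eda itself were 41, 48 and 42 in wild-type glands against 2, 0 and 0 in the mutants, in the direction the labels give. All 8 acinar markers had enough reads to be tested and 2 rose, with summed levels of 2734 to 3470 CPM in wild-type and 3135 to 4283 CPM in Eda-/- glands, which overlapped. Markers of other cells moved with genotype: 6 of 11 macrophage genes fell (summed level 101 to 205 CPM in wild-type against 46.9 to 57.5 CPM in mutants), as did 4 of 7 fibroblast genes (205 to 269 against 161 to 187 CPM) and 4 of 9 tested myoepithelial and basal genes (144 to 189 against 108 to 125 CPM). Of the erythroid genes 3 of 5 tested fell (19.6 to 29.2 against 5.22 to 14.9 CPM), and both tested adipocyte genes of the 7 listed rose (1.93 to 2.43 against 4.83 to 6.72 CPM). Of 8 endothelial genes 2 fell and 1 rose, and of 2 tested Harderian and sebaceous genes 1 rose. With edgeR 0 of 6 tested duct genes and 0 of 4 tested plasma cell genes passed (2 of each at an unadjusted p under 0.05), although plasma cell genes summed to 53.5 to 152 CPM in wild-type and 145 to 337 CPM in mutants. No skeletal muscle gene had enough reads to be tested. The part of these shifts in the results below was not tested. Below, values set one group against another are those of wild-type against Eda-/- libraries 1, 2 and 3. In whole glands, fewer cells of a type and less RNA per cell cannot be told apart.

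Several of these enzymes are selenoproteins, in which selenocysteine sits at the active site and is written in the mRNA by a TGA codon that otherwise means stop. The annotation marks such a codon in 5 of the 54 genes, and their coding sequences around it are shown because these enzymes, Gpx4 and Gpx1 among them, share this active site chemistry. Each is read from the GENCODE M21 transcript (GRCm38), 5′ to 3′, with the selenocysteine codon in capitals.
Gpx1: gagaatgtcgcgtctctcTGAggcacc
Gpx4: accaacgtggcctcgcaaTGAggcaaa
Gpx3: gtcaacgtagccagctacTGAggtctg
Gpx2: gagaatgtggcgtcactcTGAggaaca
Txnrd1: atcctccagtctggctgcTGAggttaa
The codons lie at chr9:108339451-108339453 in Gpx1, chr10:80054737-80054739 in Gpx4 and chr11:54907256-54907258 in Gpx3, all on the plus strand. That of Gpx2 is at chr12:76795256-76795258 on the minus strand, and that of Txnrd1, at chr10:82896037-82896039 on the plus strand, stands next to last before the stop. Of the 4 that were tested Gpx4 fell and the others did not pass. Over all 24 genes annotated with selenocysteine, 19 were tested, 5 rose and 2 fell, where 6.21% of all tested genes rose and 6.9% fell. Gpx4 and the plasma selenium carrier Selenop were those that fell. Among those that rose, Txnrd2, Selenof and Selenoi were not called by DESeq2, and passed in 6, 6 and 5 of 17 processing alternatives. Msrb1 and Txnrd2 are counted again below with the other thioredoxin genes. Selenof, Selenoi, Selenos and Selenop are counted again in the selenoprotein list.

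The antioxidant response element, to which NRF2 binds with a small MAF protein, has the core TGACNNNGC. RefSeq promoters (GRCm38.p6, 250 bases before to 50 after the gene start) were given for 46 of the 54 genes, and the core was found on either strand in 10 of them, 21.7%, beside 14% of all 27025 genes in the table. Among the genes that passed the test, 4 had a promoter entry and Gsta3 alone held the core. The matches of Gsta3 and of 3 enzymes that are textbook NRF2 targets are shown 5′ to 3′ with the core in capitals.
Gsta3: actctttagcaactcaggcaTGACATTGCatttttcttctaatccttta
Prdx1: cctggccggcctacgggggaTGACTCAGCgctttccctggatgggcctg
Gclm: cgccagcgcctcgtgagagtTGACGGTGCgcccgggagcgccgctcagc
Txnrd1: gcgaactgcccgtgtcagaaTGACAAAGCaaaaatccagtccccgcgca
They lie at chr1:21240444-21240492 (Gsta3, plus strand), chr4:116685446-116685494 (Prdx1, minus), chr3:122245403-122245451 (Gclm, minus) and chr10:82859094-82859142 (Txnrd1, minus). The Prdx1 core also holds TGACTCA, the AP-1 motif, which overlaps the antioxidant response element. The other genes with the core were Gstm5, Gstm7, Mgst1, Nfe2l2, Sod1 and Srxn1. Not every textbook target held it: Nqo1 had a promoter entry without the core, and Hmox1, Gclc and Gsr had no entry. A match describes these letters and is not a bound site.

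Levels per length of exon showed which enzymes dominate the wild-type gland. On the scale of scaled CPM per kb of annotated exon, Gpx1 stood highest at 63.8 ± 1.49, followed by the mitochondrial peroxiredoxin Prdx3 (42.5 ± 1.65), Gpx4 (42.3 ± 3.10) and Txn1 (42.0 ± 3.42), which did not differ beyond their spread, and then by the cytosolic peroxiredoxin Prdx1 at 32.0 ± 1.14 (SD, n = 3 each). Among transferases Gsta3 led at 19.3 ± 1.13, ahead of Gstm2 at 16.2 ± 0.889. The lowest tested genes were Gpx3 at 0.568 ± 0.148 and Nqo1 at 0.704 ± 0.261. Peroxidases of the endoplasmic reticulum were also low, with Prdx4 at 0.831 ± 0.117 and Gpx8 at 0.804 ± 0.338. Exon lengths are those of all annotated isoforms joined, which lowers the level of a gene with long, little-used exons. In the Eda-/- glands Gpx1 was again highest at 74.8 ± 6.95, Txn1 stood at 50.8 ± 1.40 and Gpx4 at 33.3 ± 3.46.

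**Figure D2:**
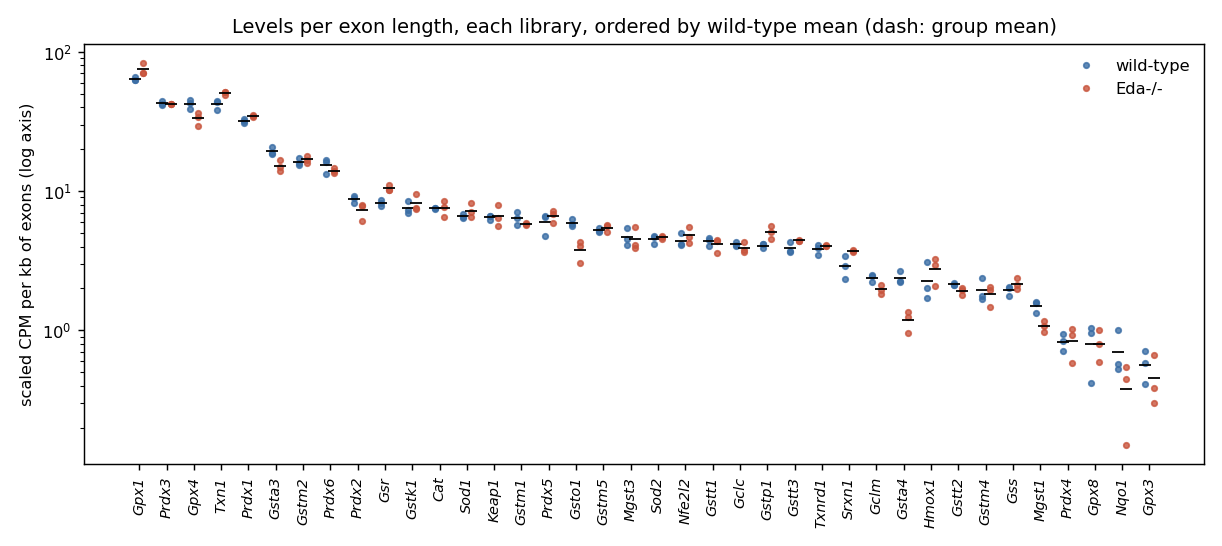
Scaled CPM per kb of exon (log axis) is plotted for each library of both groups, with genes ordered by the wild-type mean and dashes for group means. Levels span from 63.8 for Gpx1 to 0.568 for Gpx3 in wild-type, and the groups overlap in most genes.

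Of the 4 genes that make and recycle glutathione, Gsr alone passed. Gsr (chromosome 8, 33652523 to 33698163, plus strand, GRCm38) encodes glutathione reductase, which spends NADPH to restore the thiol. It had 21.4, 23.6 and 22.8 CPM in wild-type 1, 2 and 3 and 27.9, 30.6 and 27.9 CPM in mutants 1, 2 and 3. All 3 mutants lay above all 3 wild-type libraries, a log2 fold change of 0.35 (SE 0.09, edgeR adjusted p = 0.0150). Leaving out wild-type 1 or mutant 2 ended the call (adjusted p up to 0.0553). Gclm, the modifier of the rate-limiting enzyme, had 14.0, 15.703 and 15.5 CPM in wild-type and 11.4, 12.3 and 13.4 in mutants. Its groups did not overlap either, with the mutants lower, but at -0.28 (SE 0.11) it did not pass (adjusted p = 0.0937). The catalytic subunit Gclc (-0.10, adjusted p = 0.561) and the synthetase Gss (0.16, adjusted p = 0.388) had overlapping groups. Gss overlaps Acss2 on the other strand, which fell by 1.57 (log2), and shares 5.1% of its 31-base words with it. Of 35 tested neighbours within 1 Mb of Gss 13 passed.

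Among the 8 glutathione peroxidases Gpx4 alone passed, and Gpx1, the more abundant per length, was higher in each mutant without passing. Gpx4 (chromosome 10, 80047166 to 80056439, plus strand) reduces phospholipid hydroperoxides within membranes and protects cells from ferroptosis. It had 74.4, 67.0 and 77.3 CPM in wild-type and 58.8, 62.6 and 50.9 CPM in mutants, all mutants below all wild-type libraries (log2 fold change -0.35, SE 0.09, edgeR adjusted p = 0.0167). The call was lost without wild-type 1, wild-type 3 or mutant 3 (adjusted p up to 0.0944). Of the 31-base words of Gpx4, 38.9% also occur elsewhere and 38.7% in the pseudogene Gpx4-ps2, so some reads may be assigned to the wrong copy. Gpx4-ps2 itself had 58, 57 and 64 counts against 32, 29 and 31 (log2 -0.48, adjusted p = 0.125). Gpx1, the cytosolic peroxidase of hydrogen peroxide, had 90.8, 94.4 and 90.5 CPM in wild-type and 119, 102 and 102 in mutants. The mutants were higher in 3 of 3, and the gene stood just short of the threshold (0.23, SE 0.08, adjusted p = 0.0617). Gpx3, the secreted form, and Gpx8 had at most 20 counts in any library and overlapped between groups (-0.35 and -0.02). The other 4 were not tested: Gpx7 had 3, 4 and 6 counts against 2, 6 and 1, and Gpx2, an epithelial form, had 7, 5 and 17 against 3, 2 and 3. Gpx5 had 1 count in all and Gpx6 had 0.

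No peroxiredoxin passed the test, while cytosolic thioredoxin (Txn1) rose in a call that was not firm. The 7 Prdx genes summed to 275 ± 5.79 CPM in wild-type and 272 ± 2.72 in Eda-/- glands (SD, n = 3 each), and 0 of 6 tested members passed with edgeR. Prdx2 alone had an unadjusted p under 0.05, and DESeq2 and limma-voom called none of them either. Scaled by library totals alone Prdx2, Prdx3 and Prdx6 were called lower. Prdx3 had a log2 fold change of -0.01 (SE 0.07), Prdx1 of 0.11 (SE 0.07) and the bifunctional phospholipase Prdx6 of -0.14 (SE 0.09). Prdx2 had 25.1, 27.2 and 28.3 CPM in wild-type and 24.4, 18.6 and 24.0 in mutants, lower in all 3 without passing (-0.26, SE 0.11, adjusted p = 0.115). Prdx2 is a major protein of red cells, whose markers fell, and it overlaps Junb on the other strand, which fell by 0.42 (log2); their part in its value was not tested. Prdx5 and Prdx4 overlapped between groups (0.15 and 0.02), and Prdx6b had 0 counts.

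Of the thioredoxin genes Txn1 passed. Txn1 (chromosome 4, 57943373 to 57956411, minus strand) encodes cytosolic thioredoxin. It had 39.97, 46.4 and 46.0 CPM in wild-type and 54.2, 54.3 and 51.7 CPM in mutants, with no overlap (log2 0.27, SE 0.08, edgeR adjusted p = 0.0340). It is the least firm of the 6 calls: DESeq2 gave an adjusted p of 0.0836, and of the fits that left out 1 library only that without wild-type 3 kept it (adjusted p 0.0525 to 0.134 without wild-type 1, wild-type 2 or any mutant). Of its 6 tested neighbours within 1 Mb 3 passed. Sulfiredoxin (Srxn1), which repairs over-oxidised peroxiredoxins, had 6.55, 8.18 and 9.69 CPM in wild-type and 10.7, 10.5 and 10.4 in mutants. Its groups did not overlap, and it did not pass with all libraries (0.37, SE 0.14, adjusted p = 0.1005) but did without wild-type 3 (0.52, adjusted p = 0.0314). Thioredoxin reductase (Txnrd1) overlapped (0.07, adjusted p = 0.641). Summed, these 3 genes had 79.4 ± 7.01 CPM in wild-type and 92.5 ± 1.74 in mutants.

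Superoxide dismutases and catalase did not pass. Cytosolic Sod1 had a log2 fold change of 0.14 (SE 0.10), mitochondrial Sod2 of 0.04 (SE 0.08) and the peroxisomal catalase Cat of -0.01 (SE 0.10), and all 3 overlapped between groups. Catalase had 19.6, 19.6 and 19.8 CPM in wild-type, and 22.0, 19.96 and 16.9 in mutants. Extracellular Sod3 was not tested, with 9, 9 and 7 counts against 2, 5 and 1.

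**Figure D3:**
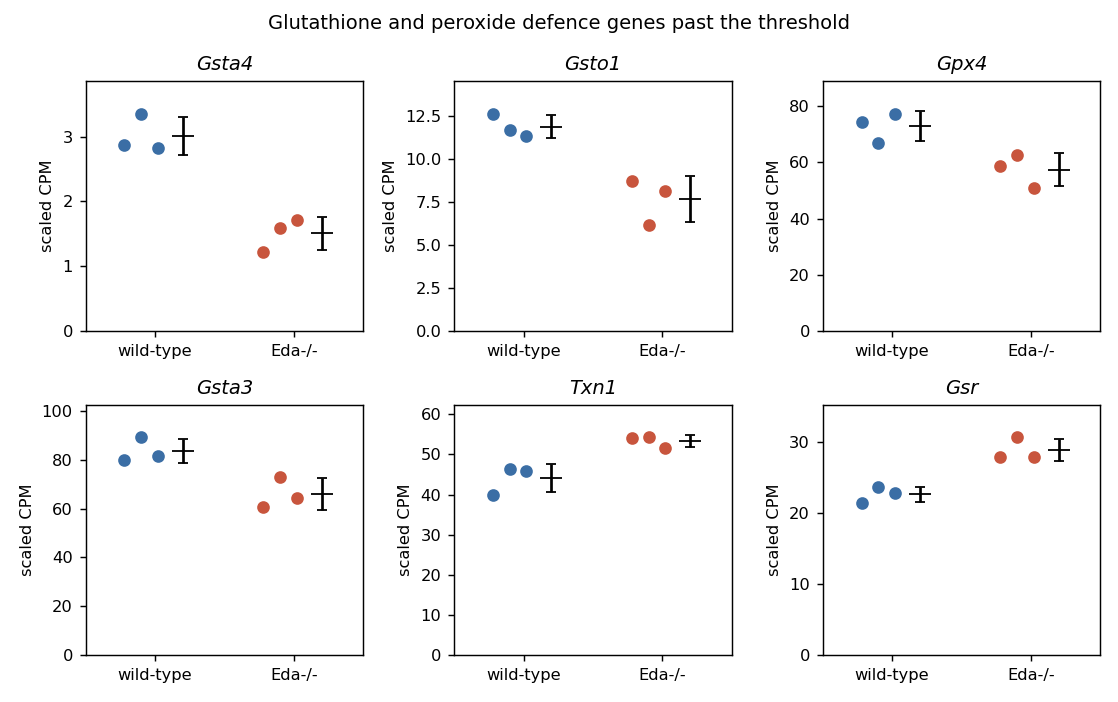
Scaled CPM is plotted for each of the 3 wild-type and 3 Eda-/- libraries in the 6 genes past the threshold, with a dash and bar for the mean and SD. In each gene the groups do not overlap, as in Gsr (21.4 to 23.6 against 27.9 to 30.6).

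In Gsta4 and Gsto1 the glutathione transferases held the largest changes among the 6 genes that passed. Their 24 genes summed to 203 ± 5.13 CPM in wild-type and 182 ± 1.51 in Eda-/- glands (SD, n = 3 each), with all mutants below all wild-type libraries. Most of this drop was in Gsta3, with means of 83.6 CPM in wild-type and 65.95 CPM in mutants. The mean omega sum was also lower (12.36 against 8.22 CPM), as was the microsomal sum (8.33 against 7.18 CPM, with overlap). Mean sums were higher in mutants for the mu (47.2 against 47.7 CPM), theta, kappa and pi classes (pi 6.30 against 8.08 CPM). Only in pi did these groups not overlap. Of 14 tested genes 3 fell and none rose, a share of 21.4% lower beside 6.9% of all genes, with a median log2 fold change of -0.08. The name rule leaves out the zeta class transferase Gstz1, which rose, and Hpgds, which fell (both given below). The number that fell was 1 without wild-type 2 and 2 without mutant 1 or mutant 3.

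Gsto1 (chromosome 19, 47854970 to 47864790, plus strand) encodes omega transferase, which reduces dehydroascorbate and lifts glutathione from proteins. It had 12.7, 11.7 and 11.4 CPM in wild-type and 8.73, 6.19 and 8.19 CPM in mutants. Every mutant lay below every wild-type library, with a log2 fold change of -0.62 (SE 0.13, edgeR adjusted p = 0.00633). It passed under all 17 alternatives tried, with adjusted p from 0.000101 to 0.0277. Cfap43, which overlaps it on the other strand, had 22, 17 and 23 counts against 8, 7 and 9, beside 203, 199 and 177 against 100, 66 and 105 for Gsto1. None of its 12 tested neighbours within 1 Mb passed. Its chromosomal neighbour Gsto2 was not tested, with 9, 7 and 6 counts against 8, 5 and 5. Within 1 Mb of Gpx4 8 of 60 tested neighbours passed, of Gsr and Gsta4 2 of 11 each, and of Gsta3 1 of 4. Among all tested genes 13.1% passed.

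Gsta4 (chromosome 9, 78182774 to 78209349, plus strand) encodes the transferase that favours 4-hydroxynonenal, a product of lipid peroxidation. It was scarce, with 46, 57 and 44 counts against 14, 17 and 22, or 2.87, 3.35 and 2.82 against 1.22, 1.59 and 1.72 CPM. The groups lay well apart (log2 fold change -0.99, SE 0.24, edgeR adjusted p = 0.0129), and the call was lost without wild-type 2 or mutant 1 (adjusted p up to 0.0636). Gsta3 (chromosome 1, 21240589 to 21265661, plus strand), the transferase with the highest level per length, had 79.9, 89.2 and 81.8 CPM in wild-type and 60.6, 73.1 and 64.2 CPM in mutants. All mutants were lower (-0.34, SE 0.08, adjusted p = 0.0127), and the call was lost without wild-type 2 or mutant 3 (adjusted p up to 0.0876). Both genes share under 3% of their words with other genes. Gsta1 had 0 counts, and Gsta2 had 2, 1 and 1 in wild-type and 0, 1 and 0 in mutants.

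The mu class, clustered on chromosome 3, did not pass in any of its 4 tested genes: Gstm2 (0.06, SE 0.09), Gstm5 (0.06), Gstm4 (-0.08) and Gstm1 (-0.14) all overlapped between groups. Of the 32 to 34 tested neighbours within 1 Mb of these genes 0 passed. The unadjusted p was under 0.05 for none of the 4, and DESeq2 and limma-voom called none, while Gstm1 was called lower on the scale of library totals. Gstm7 had 10, 8 and 7 counts against 8, 7 and 11, and Gstm3 and Gstm6 had at most 2 in a library. In the theta class Gstt3 was higher in all 3 mutants (0.18, adjusted p = 0.254) and Gstt2 lower in all 3 (-0.16, adjusted p = 0.440), neither past the threshold, and Gstt1 overlapped (-0.08). Gstt4 had 2, 1 and 1 counts in wild-type and 0 in mutants. Gstp1, the pi class enzyme, had 6.42, 6.00 and 6.42 CPM in wild-type and 8.73, 7.03 and 7.88 in mutants. It was higher in 3 of 3 and did not pass (0.33, SE 0.14, adjusted p = 0.132), and it shares 38.5% of its words with Gstp2, which had 1 count in all. Gstp3 had 0 counts in wild-type and 5, 0 and 2 in mutants. The mitochondrial and peroxisomal Gstk1 overlapped (0.11). Of the microsomal enzymes Mgst1 had 3.24, 2.71 and 3.15 CPM in wild-type and 2.36, 1.97 and 2.18 in mutants, lower in all 3 without passing (-0.48, SE 0.22, adjusted p = 0.164), Mgst3 overlapped (-0.05) and Mgst2 had at most 3 counts.

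Neither NRF2 nor its inhibitor passed. Nfe2l2 had 15.5, 15.9 and 18.9 CPM in wild-type and 16.2, 20.8 and 17.8 in mutants (log2 0.12, SE 0.11), and Keap1 had 29.3, 31.1 and 30.9 against 37.3, 26.4 and 30.2 (0.04, SE 0.11). The groups overlapped in both. The enzymes most often used as readouts of NRF2 were scarce and overlapped between groups: Nqo1 had 25, 14 and 14 counts against 8, 9 and 3 (-0.91, SE 0.44, adjusted p = 0.193), and the haem oxygenase Hmox1 had 48, 60 and 85 against 65, 39 and 66 (0.28, SE 0.23, adjusted p = 0.478). Nqo1 overlapped by a small margin, with the highest mutant at 0.843 CPM and the lowest wild-type library at 0.823 CPM. Of the 38 tested genes 12 had an unadjusted p under 0.05, 5 higher and 7 lower in mutants, 31.6% beside 27.5% of all tested genes. In 15 of the 38 tested genes the groups did not overlap, 39.5% beside 32.1% of all tested genes.

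The genes around this core were read in 7 lists. Of all tested genes 6.21% rose and 6.9% fell, the shares to set beside those of each list. Of 23 tested genes of cysteine supply and the gamma-glutamyl cycle 1 rose and 3 fell, 4.35% and 13%. Their median log2 fold change was -0.02, and 2 rose without mutant 2. Cbs, which commits homocysteine to cysteine, had 55, 80 and 69 counts against 154, 118 and 149. It was higher in every mutant (1.52, SE 0.15, edgeR adjusted p = 4.97e-06) and passed under all 17 alternatives. Of the gamma-glutamyl transferase family Ggt1, which breaks down extracellular glutathione, fell by 0.67 (log2), and its relative Ggt7, with 48, 44 and 40 counts against 4, 5 and 1, by 3.20. Ggt7 is one of the genes that passed within 1 Mb of Gss. Glutamine synthetase (Glul) fell by 0.32, a call that ended when wild-type 2 or 3 or mutant 1 or 3 was left out. The cystine carrier Slc7a11, an NRF2 target, overlapped between groups (0.02).

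Of 12 tested enzymes that use glutathione outside the families above 3 rose and 1 fell, 25% and 8.33% (median 0.15). Glo1, which with Hagh removes methylglyoxal, rose by 1.22, Gstz1, the zeta class transferase of tyrosine breakdown, by 0.47, and Hagh by 0.39. Whether the mice differed in the number of Glo1 gene copies was not tested. The call of Hagh ended when wild-type 1 or 3 or mutant 1 or 3 was left out. The prostaglandin D synthase Hpgds, a gene of myeloid and mast cells, fell by 0.98, and lost its call when wild-type 3 or mutant 1 or 3 was left out. Of 18 other thioredoxin, glutaredoxin and methionine repair genes 3 rose, 16.7%, and none fell (median 0.10). These were the methionine sulfoxide reductase Msrb1 (0.41), the mitochondrial thioredoxin reductase Txnrd2 (0.53) and Sesn1 (0.35). The number that rose was 1 without wild-type 3, mutant 2 or mutant 3. Txnrd2 passed only without wild-type 1 among the fits that left out a library, and Sesn1 was lost without wild-type 3, mutant 2 or mutant 3.

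Of 15 NADPH supply genes Pgd, of the pentose phosphate pathway, rose (0.32), 6.67% of the list, and none fell (median 0.14). It was lost without wild-type 1, 2 or 3 or mutant 1 or 2, and 0 of the 15 passed without wild-type 1, 2 or 3 or mutant 1. G6pdx (0.03) and the mitochondrial transhydrogenase Nnt (0.19, adjusted p = 0.161) did not pass. Of 28 other NRF2 targets and partners 2 rose and 2 fell, 7.14% each way and near the shares of all tested genes (median -0.04). Ugdh (0.71) and Trim16 (0.57) rose, and the exporter Abcc4 (-0.94) and the small MAF gene Maff (-1.004) fell. Ugdh was lost without mutant 1, when 1 rose, and Maff without wild-type 1, when 1 fell, and without mutant 2 or mutant 3. The ferritin chains Fth1 (-0.01) and Ftl1 (0.09) overlapped.

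Of 17 tested producers of peroxide and superoxide 1 rose and 3 fell, 5.88% and 17.6%. The median was -0.30, and it was -0.142 without wild-type 3, -0.582 without wild-type 2 and -0.737 without mutant 2. The summed level of the list was higher in all mutants, at 1025 ± 6.33 CPM against 950 ± 21.5 CPM (SD, n = 3 each). Ero1l, the endoplasmic reticulum oxidase that passes electrons to oxygen during disulfide formation, rose from 19.1 to 26.6 CPM (0.48, SE 0.09, edgeR adjusted p = 0.00287). Its paralogue Ero1lb, at 235 CPM in wild-type, had 0.23 and did not pass (adjusted p = 0.0704), nor did the sulfhydryl oxidase Qsox1 (0.07). Qsox1 had 412 CPM in wild-type and 433 in mutants, so that Qsox1 and Ero1lb held most of the list's summed level. The phagocyte oxidase gene Cybb fell by 1.13 (log2) and the xanthine oxidase gene Xdh by 1.12. Cybb is a gene of macrophages and neutrophils and moved with the macrophage markers given above. Cybb was lost without mutant 1 and Xdh without wild-type 2, and without mutant 3 no gene of the list fell. Without wild-type 2 or wild-type 3 the number that fell was 2. Of 16 genes of selenoprotein synthesis and other selenoproteins 4 rose and 1 fell, 25% and 6.25% (median 0.16). Selenos and Selenof, proteins of the endoplasmic reticulum, rose by 0.36 and 0.24, and Sepsecs, which makes selenocysteine on its tRNA, by 0.34. Selenoi, an enzyme of phospholipid synthesis, rose by 0.33. Selenof and Selenoi passed only without mutant 1 among the fits that left out a library. The carrier Selenop was lower at 37.2 against 51.1 CPM (-0.46, SE 0.08, edgeR adjusted p = 0.00220), and passed under all 17 alternatives. With wild-type 3 left out 1 of these genes rose, and 2 did with any other library but mutant 1 left out.

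**Figure D4:**
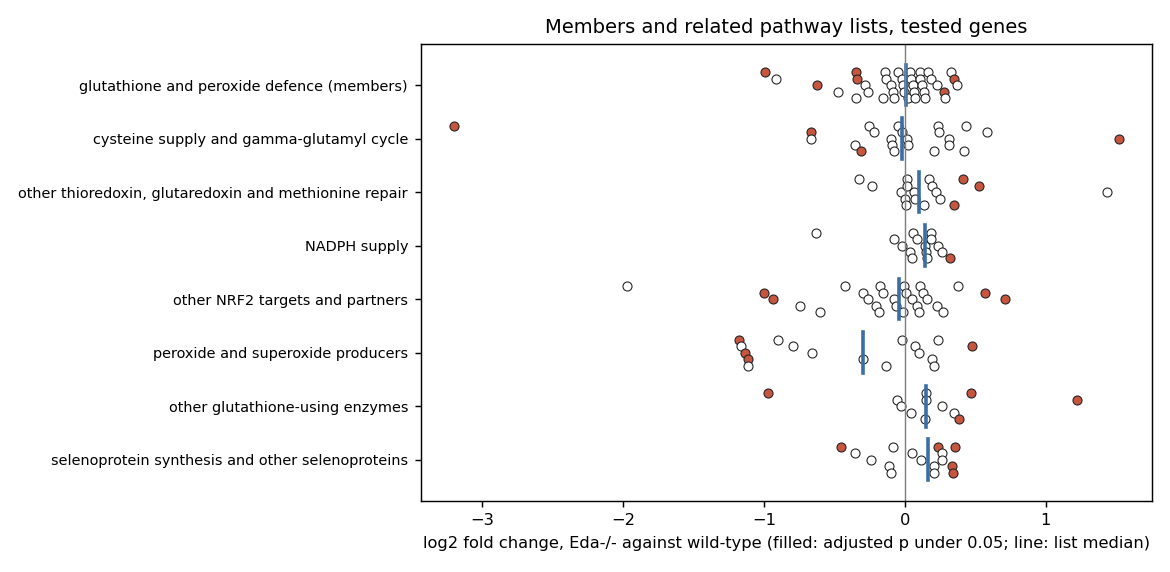
The log2 fold change of each tested gene is plotted for the 38 defence genes and for 7 related lists, with filled points for genes past the threshold and a line at each list's median. The defence genes centre on 0, and Cbs at 1.52 and Ggt7 at -3.20 lie farthest out among the genes past the threshold in the lists around them.

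The 6 calls differed in how firmly they stood. Of the 6 fits that each left out 1 library, Gsto1 passed in 6, Gsta3, Gsta4 and Gsr in 4, Gpx4 in 3 and Txn1 in 1. The direction was the same in all 6 fits for all 6 genes. Over these fits the median ran from -0.133 to -0.046 for the transferases, from -0.087 to 0.074 for cysteine supply and from -0.126 to -0.007 for other NRF2 targets. It ran from 0.097 to 0.263 for other glutathione-using enzymes, from 0.099 to 0.179 for the other thioredoxin genes and from 0.097 to 0.201 for the selenoprotein list. Of the 38 genes 2 fell without wild-type 2 or mutant 3 in place of 4, while 0 rose when wild-type 1 or mutant 2 was left out. Leaving out wild-type 3 gave 3 that rose, and leaving out any other library gave 1. Scaled by library totals alone, the median of all genes lay at -0.28 (log2). On that scale Txn1 stood at -0.01 and Gsr at 0.07, or 0.271 and 0.345 above that median, and of the 38 genes 0 rose and 13 fell. Neither Txn1 nor Gsr passed there. Setting them against that median recentres the genes much as TMM does, so these distances are not separate support for the rises.

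**Figure D5:**
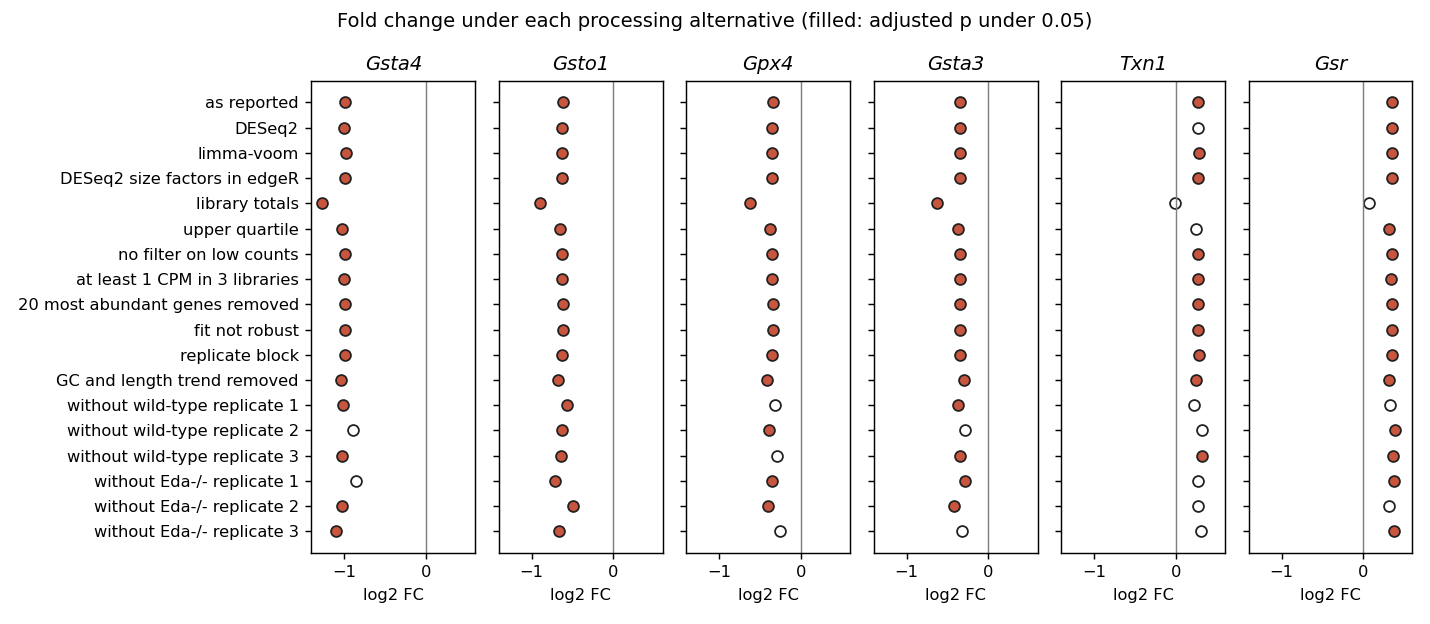
The log2 fold change of each of the 6 genes past the threshold is plotted for the reported fit and 17 alternatives, filled where adjusted p was under 0.05. Gsto1 is filled throughout, and Txn1 is open in most fits that left out a library and meets 0 with library totals.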

How the data were processed

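RNA of lacrimal glands was sequenced from 3 wild-type and 3 Eda-/- mice, with ribosomal RNA depletion and a directional library kit per the labels' protocols. The deposited values are whole-number counts of reads per gene. The submitters' processing notes list DESeq2, featureCounts, STAR, Trimmomatic and bcl2fastq, and GRCm38.p5 as the build. Tool versions, annotation, counting strand, treatment of reads with several matches and filtering before deposit were not given in the sources used here. Genes that overlap on opposite strands may therefore share reads.

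The counts were tested with edgeR 4.0.16 (R 4.3.3; limma 3.58.1), after the filterByExpr filter (minimum count 10, which left genes holding at least 99.7% of the counts) and TMM scaling, by the robust quasi-likelihood test of Eda-/- against wild-type glands. The test was two-sided, with p-values adjusted by Benjamini-Hochberg over 13178 genes and a threshold of 0.05. Standard errors are the fold change over the square root of F, and the fit was tested on simulated data, where the bar set for recovered genes was just missed and then lowered. With 3 libraries a group, a gene of a few counts can show only large differences. CPM values are TMM-scaled, and levels per length divide them by the joined exon length of GENCODE M21 (GRCm38), to which 50462 of 50686 gene IDs matched. Sharing with other genes is the percent of 31-base words of a gene's transcripts found elsewhere. Neighbours are tested genes within 1 Mb. The alternatives were DESeq2 1.42.0, limma-voom, other scalings and filters, a fit that was not robust, the 20 most abundant genes removed, a GC and length trend, a replicate block, and each library left out.

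The genes and lists were chosen with earlier results of these data known. Named genes are all of the 54, Eda, Nnt, and up to 4 passing genes of each related list by p. Selenoi, Slc7a11, G6pdx, Fth1, Ftl1, Ero1lb, Qsox1 and the overlapping or copied genes were named after their values were seen. Some genes that the rule would name are not reported here.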

Additional observations from a re-analysis of the deposited data

How the results depend on the processing

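Of the 102 values that the 6 passing genes took over 17 alternatives, 84 kept their call. Genes that had not passed did so in 9 cases with library totals and in 1 other, Srxn1 without wild-type 3. DESeq2 called 1 of the 38 genes higher and 8 genes of the related lists higher, in place of 2 and 15. With library totals 4611 genes passed (246 higher, 4365 lower), of the 38 genes 0 higher and 13 lower with a median log2 fold change of -0.274, and of the related lists 2 higher and 41 lower; the median of all genes moved to -0.277 there. On that scaling the sign turned for Gpx1 (-0.048), Gss (-0.114), Gstk1 (-0.172), Gstm2 (-0.22), Gstm5 (-0.217), Gstt3 (-0.096), Hmox1 (-0.002), Keap1 (-0.236), Nfe2l2 (-0.163), Prdx1 (-0.176), Prdx4 (-0.263), Prdx5 (-0.135), Sod1 (-0.14), Sod2 (-0.243), Txn1 (-0.006) and Txnrd1 (-0.207). Upper quartile scaling called 1 gene higher with a median of -0.024, and turned Prdx4 (-0.01). Gpx8 turned with limma-voom (0.07) and with the replicate block (0.003). The median was -0.044 with no filter on low counts and -0.019 without genes that share 10% or more of their words, an alternative chosen after seeing the data. With 1 library left out, 1162 to 1428 genes passed (561 to 677 higher, 599 to 834 lower; 599 without mutant 3), of the 38 genes 0 to 3 were higher and 2 to 4 lower with a median of -0.007 to 0.049, and of the related lists 8 to 12 were higher and 5 to 11 lower. The sign turned in at least 1 of these fits for Cat (-0.094 to 0.097), Gpx8 (-0.317 to 0.205), Gstk1 (-0.009 to 0.206), Gstm4 (-0.169 to 0.101), Gstt1 (-0.132 to 0.018), Keap1 (-0.096 to 0.151), Mgst3 (-0.227 to 0.082), Prdx3 (-0.027 to 0.028), Prdx4 (-0.125 to 0.23) and Sod2 (-0.011 to 0.075), none of which passed with all libraries. Same-numbered libraries did not deviate together (correlations -0.035, 0.021 and -0.094), and no wild-type library correlated best with its own number. With the replicate block 2 of the 38 genes were higher and 4 lower, with a median of 0.006. Apart from the scaling by library totals and the libraries left out, whose construction shows what was changed, the cause of these differences was not tested. Depth limits Gpx3, Gpx8, Nqo1 and Prdx4, and the 16 untested genes.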

Other observations

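Chosen after its values were seen, the processed pseudogene Tdpx-ps1, which shares 31-base words with Prdx2, had 0, 1 and 0 counts against 5, 5 and 6 in Eda-/- glands. With the libraries of each group pooled, the scaled ratio was 22.3, from 3.46 to 933 by the 95% exact binomial interval, which reflects counting error alone. Because the pseudogene was chosen on these same counts, the interval cannot serve as a test of a difference. The pseudogene had too few reads to be tested. Prdx2 itself was lower in all 3 mutants, at 24.4, 18.6 and 24.0 CPM against 25.1, 27.2 and 28.3 CPM.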
